A study of Mus musculus with 4 samples.

Results

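The response shared by both injected mouse zygote samples was described across genes. RNA was sequenced from 4 samples of zygotes, the fertilized egg before its first division, namely a control and an injected sample labelled MO and a control and an injected sample labelled S31A. Each injected sample was set against the control of its own experiment, and a gene belonged to the shared response when it was at least 2-fold higher in both injected samples or at least 2-fold lower in both. Of 55291 features in the deposited count table, 8981 reached 10 CPM (counts scaled to library size) in at least 1 of the 4 samples and were called measured. Of these measured genes, 557 were in the shared response, 238 higher and 319 lower. The labels name both experiments after histone H3.3 and give neither the strain, the age of the donors nor the hour of collection. They do not spell out MO, and they do not say what the control zygotes received. S31A is the usual notation for serine 31 of the protein replaced by alanine. With 1 sample in each group, injection itself and the injected agent cannot be told apart within an experiment. In RNA from whole zygotes, a change within the zygote and a change in RNA carried over from other cells also cannot be told apart.

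Histone H3.3 is a form of histone H3 that is placed in chromatin outside DNA replication by dedicated chaperones. The egg stores its mRNA, and after fertilization the stored supply packages the sperm genome once protamines leave. Transcription of the embryo's own genome starts at a low level in the zygote (minor genome activation), while most of the RNA in the cell is still maternal and is being cleared. Oligonucleotides and mRNA are commonly delivered to zygotes with a fine needle.

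The site that the S31A label refers to is coded in both H3.3 genes, and its sequence is shown because it is the amino acid that the labels name. Read on the coding strand from the GRCm38 genome with GENCODE M21 gene models, with the codon of serine 31 (codon 32 when the first methionine is counted) in capitals, the stretches are as follows. The first lies on the minus strand at chr1:180811819-180811842 and the second on the minus strand at chr11:116023902-116023925, both in coding exons.
H3f3a: agtgcgcccTCTactggaggggtg
H3f3b: agcgcgcccTCTaccggcggggtg
The serine codon was the same in both genes, with other bases around it differing.

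The H3.3 genes themselves checked the labels and did not move together. Each sample had 2 sequenced libraries, numbered 1 and 2 in the count columns. In the order control libraries 1 and 2, then injected libraries 1 and 2, H3f3b (chr11:116021912-116027962) stood at 2199, 1550, 2.298 and 10.48 CPM in the MO experiment. In the S31A experiment the same 4 libraries held 1453, 1819, 2438 and 2749 CPM. Both MO injected libraries were thus far below their controls, and both S31A injected libraries were above theirs. The log2 ratio of injected over control was -8.34 with MO and 0.65 with S31A. H3f3a (chr1:180800832-180813943) stood at 461.6, 585.8, 8.04 and 52.4 CPM in the MO experiment and at 656.7, 562.8, 484.5 and 648.2 CPM in the S31A experiment. Its log2 ratio was -4.22 with MO and -0.12 with S31A, where the libraries overlapped. H3.3 transcripts have near-identical copies in the genome, so the sharing of their reads is uncertain.

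**Figure D1:**
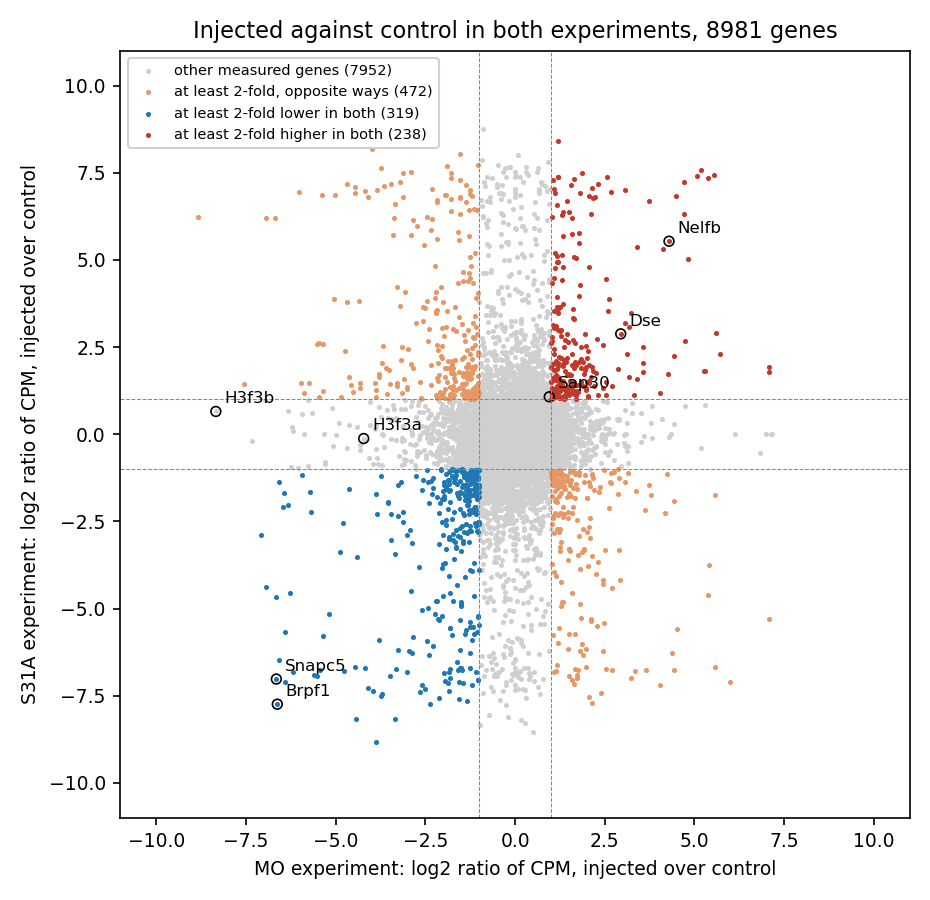
Each point is a measured gene, with the log2 ratio of CPM of injected over control in the MO experiment on the x axis and in the S31A experiment on the y axis, and dashed lines mark 2-fold. The 238 genes in the upper right and 319 in the lower left are the shared response, 472 genes lie in the other corners, and H3f3a and H3f3b stand to the left near the middle.

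The shared response was small, and few genes in it were well measured. At least 2-fold differences were common within each experiment: in MO, 1044 genes (11.6%) were higher and 1277 (14.2%) lower, and in S31A, 1339 (14.9%) were higher and 1534 (17.1%) lower. Both ratios were at least 2-fold higher in 238 genes (2.65% of those measured) and at least 2-fold lower in 319 (3.55%), together 557 (6.2%). A further 472 genes (5.26%) were at least 2-fold in opposite ways, 200 (2.23%) higher with MO and lower with S31A and 272 (3.03%) the reverse. The log2 ratios had 1 sign in both experiments in 4841 genes (53.9%), 2498 (27.8%) higher and 2343 (26.1%) lower, and opposite signs in 4085 (45.5%). Across the 8981 genes, which are not independent replicates, Pearson's r between the experiments was 0.05 and Spearman's rho 0.09. Without a fold limit, both injected libraries lay beyond both controls in each experiment for 358 higher genes (3.99%) and 440 lower genes (4.9%), beside 559 (6.22%) in opposite ways. Within S31A alone the libraries did not overlap for 1687 higher (18.8%) and 1719 lower genes (19.1%), and within MO for 1630 (18.1%) and 1906 (21.2%). Joining this condition with the 2-fold rule left 77 higher genes (0.857%) and 163 lower genes (1.81%), beside 166 (1.85%) in opposite ways.

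No gene passed the test of a shared difference. The edgeR quasi-likelihood test on counts summed per sample, with experiment as a block, called 0 of 8981 genes (0%) at an adjusted p under 0.05, and its smallest adjusted p was 0.899. Unadjusted p-values were under 0.05 for 433 genes (4.82%), 200 higher (2.23%) and 233 lower (2.59%). The same test over the 8 libraries also called 0 genes, with a smallest adjusted p of 0.853 and 506 genes (5.63%) under 0.05 unadjusted. What the latter p-values measure is the spread between libraries alone, which may be technical. DESeq2 on the summed counts called 18 genes higher (0.2%) and 25 lower (0.278%), and over libraries 23 higher (0.256%) and 14 lower (0.156%). Of these calls, 38 of the 43 on sums and 21 of the 37 over libraries were in the shared response. The fit over libraries takes the 2 libraries of a sample as replicates. Some of its calls, such as Grk3 and Olfr478, had counts in a single S31A library and 0 counts in the MO experiment. Both DESeq2 fits called 15 genes, 13 of which were in the shared response.

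The 4 injected libraries did not carry the higher or the lower genes evenly. Among the 238 higher genes, injected library 1 exceeded injected library 2 in both experiments for 127 (53.4%), and library 2 exceeded library 1 in both for 33 (13.9%). Over all measured genes these shares were 27.7% and 25.6%. Among the 319 lower genes they were skewed the other way, at 22 genes (6.9%) and 104 genes (32.6%). For the control libraries the same shares were 21.4% and 19.3% of the higher genes, and 24.5% and 28.8% of the lower genes. Injected library 1 held more counts than library 2 with MO (13233371 and 9180752) and with S31A (12186081 and 9908251). It therefore weighs more in the summed counts from which the ratios were taken. Its lead among the higher genes, and the reverse among the lower genes, may thus follow in part from the rule. How large that part is was not tested. Control library 1 held more counts than control library 2 with MO (9145323 and 5661621) and fewer with S31A (10436258 and 11264733). The control shares are thus no like comparison for the injected ones. With both injected libraries 1 left out, 62 of the 238 higher genes were still at least 2-fold higher in both experiments, and 56 no longer reached 10 CPM. Without both injected libraries 2, 161 remained. Leaving out MO injected library 2 alone gave 886 genes the same way, 574 of them lower. Leaving out MO injected library 1 alone gave 533 genes the same way and 568 in opposite ways, so in that fit same-way genes were not in excess. They were in excess without both injected libraries 1, with 677 the same way and 627 in opposite ways. Of the lower genes, 159 of 319 remained without both injected libraries 1 and 259 without both injected libraries 2, with none lost to the 10 CPM limit. Lower genes reach that limit through their controls and higher genes through their injected samples, so this contrast follows from the limit. Without both control libraries 1, 48 lower genes and 0 higher genes no longer reached it.

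The 2 libraries of a sample were themselves far apart, which sets the scale for these counts. Between libraries of the same sample, 25.2% to 39.8% of measured genes were at least 2-fold apart (4 pairs, median 39%). Between an injected and a control library of the same experiment the range was 25.8% to 46.1% (8 pairs, median 41.25%). These ranges overlapped over most of their span. Library totals ran from 5661621 to 13233371 counts, and 11372 to 15156 features were detected per library. Mitochondrial genes took 3.47% to 10.4% of the counts.

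Agreement between the experiments varied with how abundant a gene was. Among 1522 genes with a mean under 10 CPM over the 4 samples, 271 were at least 2-fold the same way and 269 in opposite ways, and 49.8% had 1 sign in both. Such genes counted as measured only because at least 1 sample reached 10 CPM, above their mean. Large ratios in this class thus follow in part from the limit. Among 1427 genes at 50 to 100 CPM, 34 were the same way and 11 opposite, and 55.6% had 1 sign. Among 518 genes at 300 to 1000 CPM, 3 were the same way and none opposite, and 61.2% had 1 sign, 224 higher and 93 lower. For the 117 genes at 1000 CPM and over, 60.7% had 1 sign. Pearson's r of -0.66 in this class rested on H3f3b and copies of H3.3 genes: over the 114 others r was 0.2. The median absolute log2 ratio went along the same classes from 1.08 to 0.351 with MO and from 1.7 to 0.252 with S31A.

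**Figure D2:**
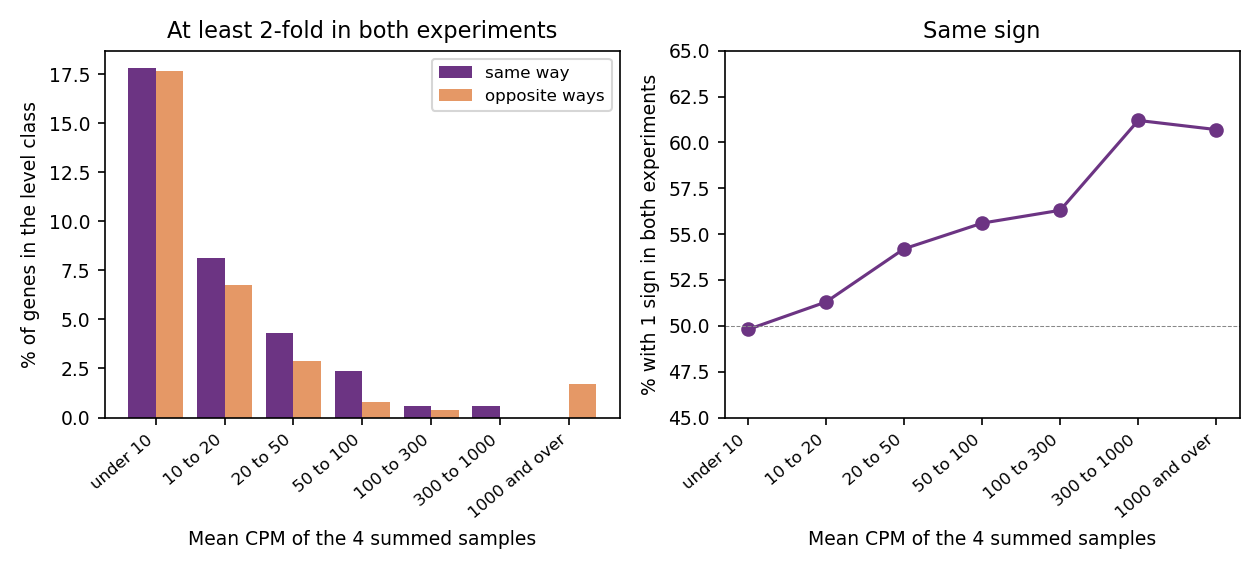
Left, the percentage of genes in each class of mean CPM that were at least 2-fold in both experiments, the same way (purple) or in opposite ways (orange); right, the percentage of genes whose log2 ratios had 1 sign in both. Both kinds of 2-fold gene are most frequent under 10 CPM, where their counts, 271 and 269, are nearly equal, and the same-sign percentage goes from 49.8 to 61.2 by 300 to 1000 CPM. Genes with a mean under 10 CPM entered only through a sample at 10 CPM or more, so their large ratios follow in part from the limit.

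The genes that met the rule were mostly rare transcripts. Their median mean CPM was 10.5 for the higher genes and 10.2 for the lower genes, beside 8.76 for the opposite-way genes and 31.9 for all measured genes. At least 1 of the 8 libraries had a count of 0 for 57.1% of the higher, 57.7% of the lower and 63.3% of the opposite-way genes, beside 18.9% of all. Features otherwise differed little: 85.1% of higher and 84.7% of lower genes were protein coding (85.8% of all), 2.52% and 3.13% lay on the X chromosome (3.61% of all), and their median lengths were 3878.5 and 3811 bases (4402 for all). At the edge of the 2-fold rule, Osgin1 (log2 -1.165 with MO, -1 with S31A) and Cstf2t (-1.002, -1.51) were just inside, and Trav13-3 (-0.998, -1.90) and Cds2 (1.09, 0.997) just outside.

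Single genes are described next. The 12 highest and 12 lowest were picked from these same ratios, as the shared-response genes with the largest lower counting limit in the weaker experiment and no overlap between injected and control libraries, so their values describe them and are no test.

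Among the 12 highest, Nelfb, Rcor2 and Ino80c encode regulators of transcription or chromatin. Nelfb, a subunit of the NELF complex that holds RNA polymerase II near promoters (chr2:25199712-25211489), stood at 0.435 and 0.658 CPM in the controls of the MO experiment and at 9.11 and 15.4 CPM in its injected libraries. With S31A it had 0 counts in both controls, and its injected libraries held 0.853 and 8.99 CPM. It was low in all controls, and its 2 injected libraries lay far apart with S31A. Its log2 ratio was 4.29 with MO (95% exact counting interval 3.54 to 5.76). With S31A it was at least 32.9-fold higher, set against a floor of 3 counts in the summed control. Rcor2, a partner of the histone demethylase LSD1, stood at 1.85 and 1.15 against 17.5 and 7.64 CPM with MO, and at 1.12 and 0.967 against 13.5 and 6.21 CPM with S31A. Its ratios were alike, 3.07 and 3.19 on the log2 scale. Ino80c, a subunit of the INO80 remodeller, stood at 10.3 and 6.25 against 44.0 and 16.9 CPM with MO, and at 14.5 and 0 against 69.9 and 29.0 CPM with S31A. Its libraries 1 were the higher ones in both injected samples.

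Other genes among the highest act at membranes, in sugar chains or in signalling. Dse, an enzyme that makes dermatan sulfate (chr10:34151393-34207715), had the smallest unadjusted p of all genes with a standard symbol (0.000451, edgeR on sums, adjusted p 0.899). It stood at 15 and 12.3 against 165.4 and 16.6 CPM with MO and at 2.43 and 7.12 against 44.4 and 25.9 CPM with S31A. MO injected library 2 was close to its controls, and without both injected libraries 1 the log2 ratio was 0.22 with MO and 2.36 with S31A, in place of 2.94 and 2.88. Saraf, a regulator of store-operated calcium entry, stood at 10.8 and 15.4 against 226.4 and 30.2 CPM with MO, and at 36.8 and 23.2 against 142.9 and 52.1 CPM with S31A. Tnks2, a tankyrase that attaches poly(ADP-ribose) to its targets, stood at 21.9 and 11.8 against 95.8 and 52.5 CPM, and at 22.1 and 16.1 against 82.0 and 46.2 CPM. The lowest injected library of Tnks2, at 46.2 CPM, was above the highest control, at 22.05 CPM, and its log2 ratios were 2.17 and 1.80.

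The remaining 6 of the highest genes were Gorab, Lrrc70, Osbpl5, Fam167a, Mettl7a3 and Alg2. Gorab, a Golgi protein, stood at 3.26 and 7.23 against 20.9 and 43.8 CPM with MO and at 0 and 0.352 against 25.1 and 45.4 CPM with S31A. Its injected levels were alike in both experiments, and the difference lay in the controls, so that its log2 ratio was 2.67 with MO and 6.94 with S31A. Lrrc70 was at 0 in both MO controls and at 0.996 and 4.58 CPM in the injected libraries, and at 0.0934 and 0 against 5.88 and 18.3 CPM with S31A. For Osbpl5, an oxysterol-binding protein, the S31A control library 1 was already at 8.22 CPM, beside 15.7 and 27.2 CPM in the injected libraries. Fam167a, Mettl7a3 and Alg2, a mannosyltransferase of N-glycan synthesis, had mean log2 ratios of 2.01, 2.51 and 2.01, from which each experiment lay 0.04, 0.06 and 0.16 away.

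**Figure D3:**
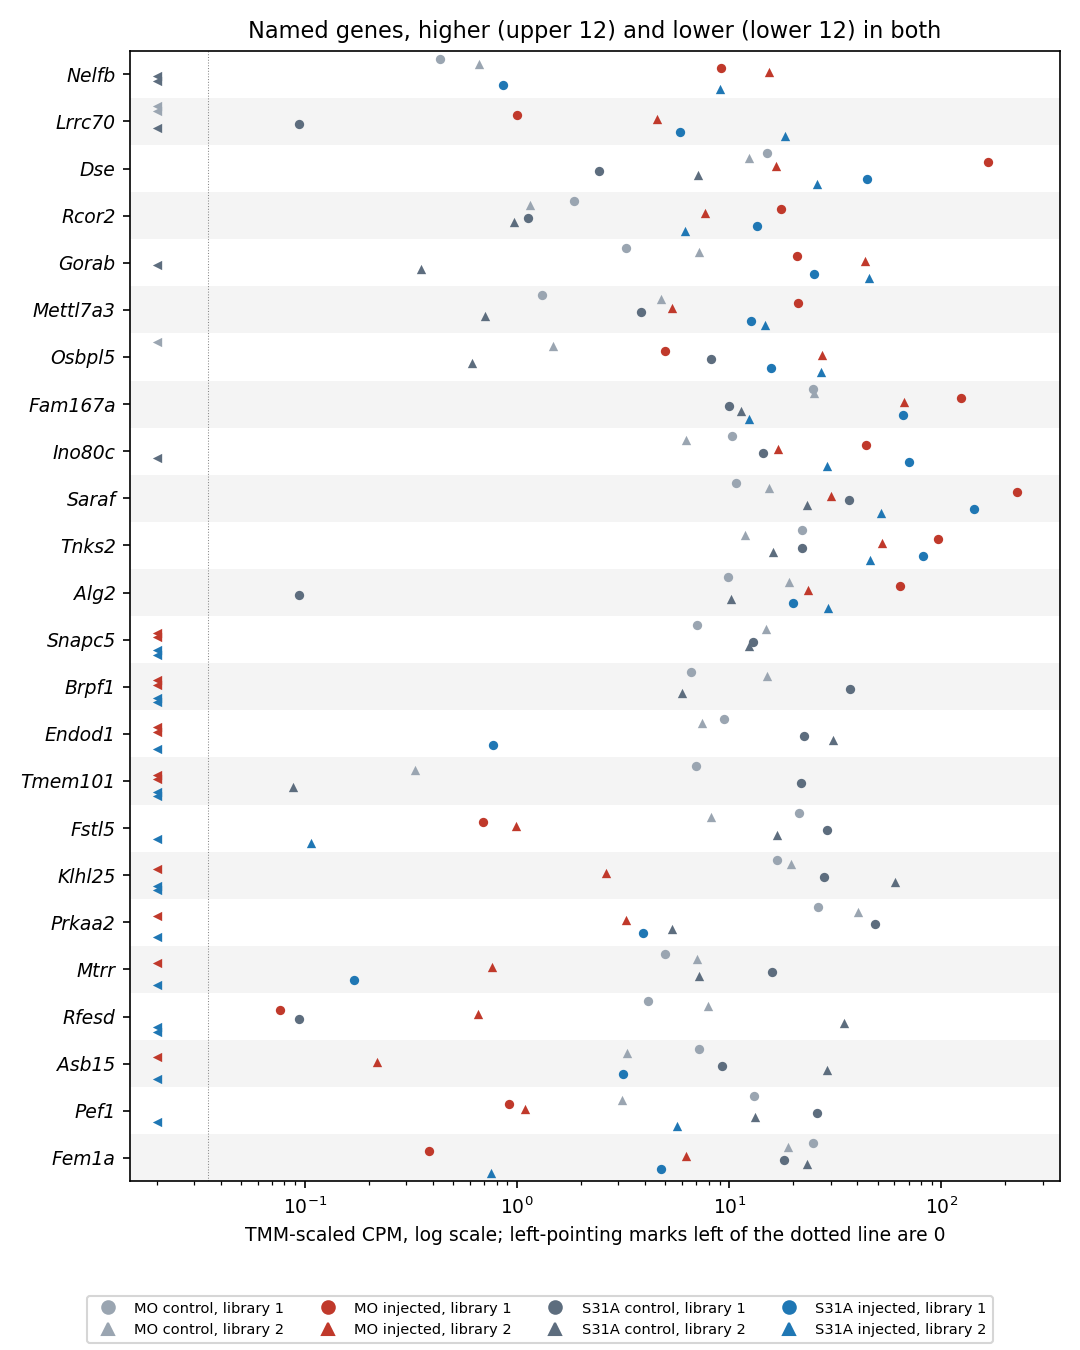
Scaled CPM on a log axis in each of the 8 libraries (circles, library 1; triangles, library 2; grey, controls; red, MO injected; blue, S31A injected) for the 12 highest and 12 lowest genes, with counts of 0 drawn left of the dotted line. Most values lie under 100 CPM, and Snapc5 and Brpf1 are at 0 in all 4 injected libraries.

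The lowest genes were led by transcripts that all 4 injected libraries lacked. Snapc5, a subunit of the complex that starts transcription of small nuclear RNA genes (chr9:64179274-64183132), stood at 7.06 and 14.96 CPM in the MO controls and at 13.0 and 12.4 CPM in the S31A controls. It had 0 counts in the 4 injected libraries, so it was at least 72.8-fold lower with MO and at least 88.8-fold lower with S31A, against a floor of 3 counts in each summed sample. Brpf1, a scaffold of MOZ and MORF histone acetyltransferases (chr6:113307137-113324860), stood at 6.63 and 15.1 CPM and at 36.9 and 5.98 CPM in the controls, and also had 0 counts in the 4 injected libraries. The bounds were at least 71.5-fold lower with MO and at least 146.8-fold lower with S31A. Of all 319 lower genes, 18 had 0 counts in all 4 injected libraries, and of the 238 higher genes 7 had 0 counts in all 4 control libraries. Among all measured genes the corresponding counts were 23 and 16.

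The promoters of Nelfb and Snapc5 are printed as the pair that leads each direction by the naming rule. The sequences are from RefSeq on GRCm38.p6, 250 bases before to 50 bases after the annotated start, 5′ to 3′ on the gene's strand. Capitals mark every match, on either strand, to the TATA box motif written as TATAAA, the CCAAT motif, the GC box motif written as GGGCGG and the E-box motif written as CACGTG, and none of the matches overlapped another. Nelfb lies on the minus strand at chr2:25211440-25211739 and Snapc5 on the plus strand at chr9:64179047-64179346.
Nelfb: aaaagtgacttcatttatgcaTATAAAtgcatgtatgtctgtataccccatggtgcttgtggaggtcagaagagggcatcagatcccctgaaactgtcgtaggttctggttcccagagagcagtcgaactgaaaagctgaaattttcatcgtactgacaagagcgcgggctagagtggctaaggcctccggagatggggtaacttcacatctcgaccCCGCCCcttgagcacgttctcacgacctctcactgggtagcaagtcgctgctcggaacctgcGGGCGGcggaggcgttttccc
Snapc5: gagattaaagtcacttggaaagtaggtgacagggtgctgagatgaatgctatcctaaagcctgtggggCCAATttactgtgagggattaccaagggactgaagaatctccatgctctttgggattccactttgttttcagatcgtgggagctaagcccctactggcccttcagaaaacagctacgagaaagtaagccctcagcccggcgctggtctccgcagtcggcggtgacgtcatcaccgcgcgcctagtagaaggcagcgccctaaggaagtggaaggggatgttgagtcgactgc
Nelfb held 1 TATAAA and 2 GGGCGG matches, and Snapc5 held 1 CCAAT match. Over all 27025 promoters of this length in the table, TATAAA was found in 14.2%, CCAAT in 37.9%, GGGCGG in 35.9% and CACGTG in 7.24%. A promoter was found for 70.2% of the higher genes, 68% of the lower genes and 70.7% of all measured genes, which is under 80%, so a comparison of promoter features between these sets is void.

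Endod1, Klhl25, Prkaa2 and Fem1a were also among the lowest genes. Endod1 stood at 9.46 and 7.398 CPM in the MO controls and 22.4 and 30.8 CPM in the S31A controls. It had 0 counts in both MO injected libraries, and 0.767 and 0 CPM in the S31A injected ones. Klhl25, an adaptor of a cullin ubiquitin ligase, stood at 16.8 and 19.6 against 0 and 2.62 CPM with MO, and at 27.8 and 60.4 against 0 and 0 CPM with S31A. Prkaa2, a catalytic subunit of the energy sensor AMPK, stood at 26.1 and 40.6 against 0 and 3.28 CPM, and at 48.4 and 5.36 against 3.92 and 0 CPM. The S31A control library 2 of Prkaa2 was close to its injected library 1. Fem1a, which recognizes substrates for a ubiquitin ligase, stood at 24.9 and 18.9 against 0.383 and 6.22 CPM, and at 18.1 and 23.3 against 4.78 and 0.749 CPM. Its 4 controls lay close together, and its log2 ratios were -2.92 and -2.75.

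The other lowest genes were Tmem101, Fstl5, Mtrr (methionine synthase reductase), Rfesd, Asb15 and Pef1 (a penta-EF-hand calcium-binding protein). Fstl5, a follistatin-like protein, stood at 21.3 and 8.22 against 0.689 and 0.982 CPM with MO, and at 29.0 and 16.8 against 0 and 0.107 CPM with S31A. For Tmem101 the control levels rested on library 1, at 6.96 and 21.9 CPM, while the libraries 2 held 0.329 and 0.0879 CPM. For Rfesd the S31A control libraries held 0.0934 and 34.8 CPM. Both sets of controls thus differed within a sample by far more than 2-fold. Mtrr, Asb15 and Pef1 had mean log2 ratios of -4.84, -4.13 and -2.96, from which each experiment lay 1.05, 0.74 and 0.07 away.

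Better measured genes with small p-values are given as well; these were picked once their values had been seen. Sap30, a subunit of the SIN3 histone deacetylase complex (chr8:57482707-57487860), stood at 898.1 and 853.1 against 1556 and 1766 CPM with MO, and at 544.5 and 658 against 1365 and 1141 CPM with S31A. All 4 injected libraries were above all 4 controls. Its log2 ratio was 0.95 (interval 0.93 to 0.98) with MO and 1.07 (interval 1.04 to 1.10) with S31A, so it fell just short of 2-fold with MO. Without both injected libraries 1 the ratios were 0.97 and 0.90. Its edgeR adjusted p was 0.899 on sums and 0.853 over libraries, and both DESeq2 fits called it (adjusted p 0.0118 and 1.22e-07). Lrrc59, a protein of the endoplasmic reticulum, stood at 58.7 and 114.6 against 20.1 and 17.7 CPM with MO, and at 91.1 and 72.2 against 0.853 and 23.4 CPM with S31A. Its log2 ratios were -2.02 and -2.89, and its injected and control libraries did not overlap. Arhgap28, Pole3 and Caml also had libraries that did not overlap. The log2 ratios were 1.15 and 1.25 for Arhgap28, and 1.31 and 1.41 for Pole3, a small subunit of DNA polymerase epsilon. They were -2.42 and -1.37 for Caml, which takes part in the insertion of membrane proteins. With MO, however, injected library 2 of Arhgap28 stood at 168.5 CPM, beside 167.1 CPM in control library 1. Without both injected libraries 1 the ratios were 0.19 and 1.16 for Arhgap28, 0.715 and 0.90 for Pole3, and -3.89 and -1.63 for Caml. The range of adjusted p over the edgeR alternatives for Sap30 was 0.512 to 1.

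Lists of genes for pathways of the egg and zygote were followed in the same ratios. In the 21 lists together, 19 of 493 distinct measured members (3.85%) were at least 2-fold the same way, 5 higher and 14 lower, beside 6.2% of all measured genes, and 17 (3.45%) were in opposite ways, beside 5.26%. No member passed the edgeR test. Up to 3 members per list were selected for the largest value of the weaker of the 2 ratios, and 41 of these 62 moved by over 1.5 times or changed sign in mean log2 ratio when 1 library was left out. The medians of 19 of the 21 lists took both signs over the alternatives, and those of the proteasome and the p53 and DNA damage lists kept theirs. Medians below are over the measured members, beside a median log2 ratio of 0.016 with MO and 0.010 with S31A over all measured genes, and a mean of both of 0.022.

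Maternal transcripts of the egg had no common direction as a group. Of 50 oocyte and maternal-effect genes, 46 were measured; 16 had higher, 12 lower and 18 opposite signs in the experiments, and the list median was -0.007 with MO and 0.146 with S31A. Mos alone was at least 2-fold higher in both, and none was 2-fold lower. Unadjusted p-values under 0.05 fell to 11 of the 46 (23.9%), beside 4.82% of all genes, 6.2% of the 1904 genes at 100 to 1000 CPM and 12.8% of the 117 genes at 1000 CPM and over. These 11 were Gdf9, Mos, Plat, Zar1, H1f8, Rnf114, Rfpl4, Zbed3 and Bpgm, higher on average, and Ccnb3 and Zar1l, lower. Their adjusted p was 0.899 or more.

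Gdf9, Mos, Plat and Zar1 stood high in injected library 1 of both experiments and not in injected library 2. Gdf9, a growth factor secreted by the oocyte, stood at 868.8 and 821.7 against 4674 and 490.1 CPM with MO. With S31A it stood at 1147 and 1630 against 3264 and 1192 CPM. In both experiments injected library 1 was above both controls, and MO injected library 2 was below them. Mos, the kinase that keeps the egg arrested in meiosis, stood at 24.1 and 24.3 against 93.1 and 12.3 CPM, and at 17.8 and 22.1 against 77.3 and 13.9 CPM. Its log2 ratios of 1.35 and 1.30 became -0.99 and -0.54 without both injected libraries 1. Plat, the tissue plasminogen activator of the egg, stood at 148.1 and 148.8 against 465.4 and 105.1 CPM, and at 106 and 367.9 against 523 and 134.5 CPM. Zar1, which acts on stored mRNA, stood at 696.9 and 379.6 against 3636 and 459.2 CPM, and at 1424 and 1426 against 2162 and 1444 CPM.

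Rfpl4, Zbed3 and Zar1l differed with no overlap of injected and control libraries in either experiment. Of the 46 measured members of this list, 2 were higher (4.35%) and 3 lower (6.52%) in this way. These shares stood beside 3.99% and 4.9% of all measured genes. Libraries that did not overlap in opposite ways were more frequent, with 6 members (13%), beside 6.22% of all. Rfpl4 stood at 5102 and 4815 against 7714 and 7971 CPM with MO, and at 2880 and 2893 against 3776 and 3136 CPM with S31A. All injected libraries exceeded the controls of their experiment, and the log2 ratios were 0.70 and 0.28. Zbed3, a member of the subcortical maternal complex, had log2 ratios of 0.76 and 0.15 with the libraries apart in both experiments. Without both injected libraries 1 the ratios were 0.60 and -0.008 for Zbed3, 0.65 and 0.10 for Rfpl4, and -1.58 and -0.85 for Zar1l. Zar1l, the paralog of Zar1, stood at 46.0 and 70.9 against 20.1 and 19.0 CPM with MO and at 44.9 and 65.2 against 31.04 and 31.15 CPM with S31A, lower in all 4 injected libraries. H1f8, the linker histone of the oocyte, had a log2 ratio of 2.13 with MO and 0.23 with S31A, which were 0.47 and -0.34 without both injected libraries 1.

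**Figure D4:**
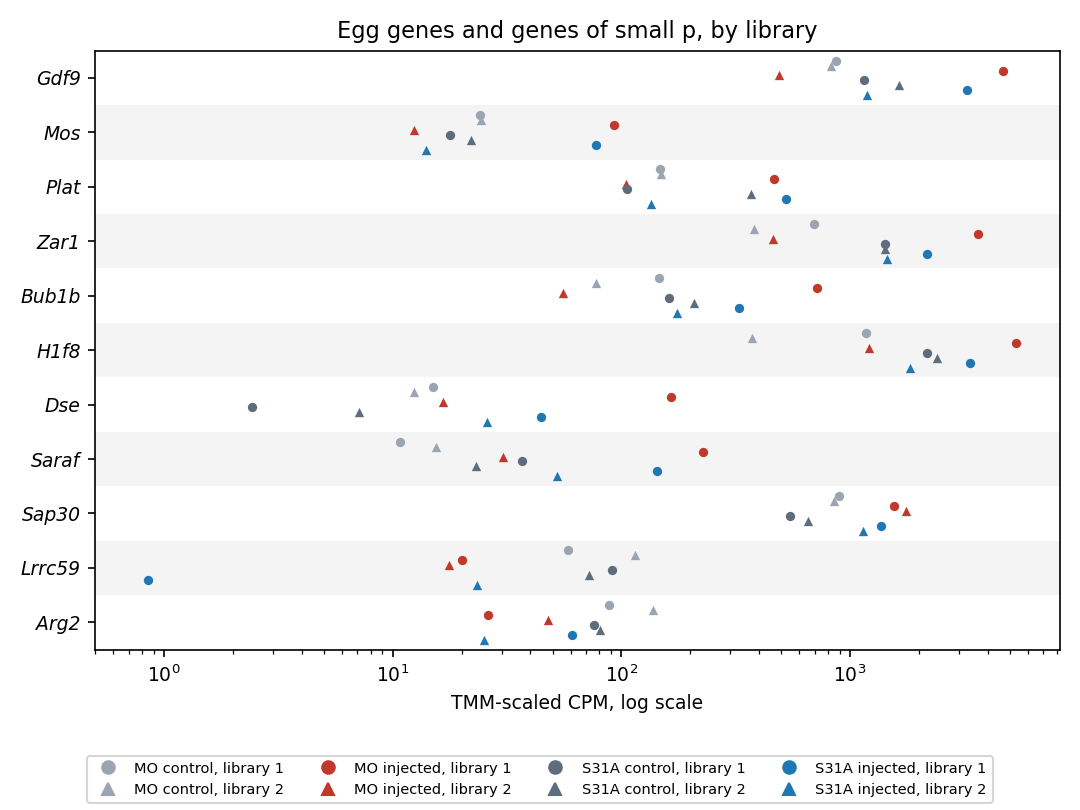
Scaled CPM on a log axis in each of the 8 libraries (circles, library 1; triangles, library 2; grey, controls; red, MO injected; blue, S31A injected) for egg genes and for genes of small p-value. The injected circles of Gdf9, Mos, Plat and Bub1b stand right of the other marks while the injected triangles lie among or below the controls, and the injected marks of Sap30, of both kinds, lie right of all its controls.

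Other lists of the egg gave no member at least 2-fold higher in both experiments. Of 40 measured cell cycle and egg arrest genes, 18 had higher and 5 lower signs in both, beside 27.8% and 26.1% of all genes, and the median was 0.083 with MO and 0.36 with S31A. Bub1b, a spindle checkpoint kinase, stood at 146.4 and 77.1 against 713.7 and 55.7 CPM with MO, again on library 1. Espl1, the separase that opens cohesin rings, stood at 60.0 and 25.6 against 98.8 and 41.3 CPM, and at 32.9 and 26.0 against 99.9 and 49.9 CPM. The median for the mean of both experiments was 0.195, ranged from 0.072 to 0.339 with 1 library left out, and was -0.123 without both injected libraries 1. Cdk6 and Cdkn1b were rare, and Cdk6 rested on 31.8 CPM in the S31A injected library 2, with 0 in the other S31A libraries. Of 24 measured mRNA decay factors, none was 2-fold the same way; the CCR4-NOT members Cnot2 (log2 -0.74 and -0.72) and Cnot4 (-0.85 and -0.67) and the m6A reader Ythdf2 (0.49 and 0.74) were those with the largest weaker ratio. Among 24 measured storage and translation genes, the Y-box proteins Ybx3 (-0.79 and -1.12) and Ybx1 (-0.54 and -1.004) were lower in both sums. Of 17 calcium and egg activation genes none was 2-fold the same way; Orai1, the store-operated channel that Saraf regulates, had ratios of -0.73 and -0.73, the second from 24.2 and 0 CPM in the S31A injected libraries and 0.08 without library 2, and Atp2b1 (0.61 and 0.37) and Ppp3ca (0.89 and 0.35) were higher in both sums.

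Genes of genome activation and gene expression showed no common direction. Of 30 genes of the 2-cell stage 10 were measured; none was 2-fold the same way, 4 were 2-fold in opposite ways, and the median was -1.07 with MO and 0.78 with S31A. Arg2, an arginase, stood at 88.2 and 137.6 against 26.0 and 47.7 CPM, and at 76.0 and 81.0 against 60.5 and 25.1 CPM, lower in all 4 injected libraries. Zfp750 was lower too, at log2 ratios of -0.61 and -0.47, with no overlap of libraries. Tcstv1 had ratios of 0.34 and 0.82. Of 25 measured genes of major genome activation, Polr2b, the second largest subunit of RNA polymerase II, was 2-fold lower in both (-1.21 and -1.74), Cct2, a chaperonin subunit, had -0.70 and -1.03, and Ran, the GTPase of nuclear transport, 0.71 and 0.97. Eif4a1, the RNA helicase of translation initiation, stood at 327.9 and 269.3 against 482.4 and 420.2 CPM, and at 368.2 and 438.6 against 728.5 and 581.4 CPM, with no overlap. It was the only member of the major genome activation list higher in this way (4%, beside 3.99% of all measured genes). Lower with no overlap were 4 members (16%, beside 4.9%), and 1 was opposite (4%, beside 6.22%).

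The list of RNA polymerase II machinery had 36 measured members, of which Polr2b and Ercc3, a TFIIH helicase (-3.19 and -1.37), were 2-fold lower in both. Gtf2f1, a subunit of TFIIF, had ratios of -0.71 and -1.61. Of 38 splicing factors none was 2-fold the same way; Sf3a3 (-0.79 and -0.95) and Prpf38a (-1.48 and -0.76) were lower and Hnrnpa1 (0.49 and 0.91) higher with no overlap of libraries. Of 78 cytosolic ribosomal protein genes 14 were measured. Rpl29 was 2-fold lower (-2.33 and -1.33) and Rpl30 2-fold higher (1.63 and 5.10), the latter from 1 injected library in each experiment; Rpl4 had -0.66 and -0.80. Ribosomal protein genes have many copies in the genome, so their counts are uncertain.

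Chromatin lists were as mixed. Of 21 measured H3.3 deposition and handling factors, Ikbkb, an IKK kinase, and Chd2, a remodeller, were 2-fold lower in both. Ikbkb stood at 49.99 and 22.2 against 0.0766 and 16.3 CPM with MO, and at 31.3 and 44.6 against 21.2 and 15.7 CPM with S31A. Chd2 was at 0 in 4 of the 8 libraries, and its direction turned when MO control library 1 was left out (mean log2 ratio 0.789 in place of -1.42). Chd1, a related remodeller, had ratios of -1.75 and -0.98. Of 12 histone and variant genes with a row of counts, 6 were measured. The linker histone H1f1 stood at 7.72 and 14.96 against 1.53 and 5.79 CPM with MO, and at 12.2 and 5.98 CPM against 0 counts in both libraries with S31A, at least 63.1-fold lower there. H1f0, another linker histone, had log2 ratios of 0.28 and 0.97. Of 41 enzymes of parental genome reprogramming none was 2-fold the same way, while 17 had higher and 6 lower signs, beside 27.8% and 26.1% of all genes. Kdm1b, the oocyte H3K4 demethylase, stood at 222.9 and 118.7 against 214.8 and 326.5 CPM, and at 188.3 and 246.2 against 379.8 and 490.5 CPM. The acetyltransferase Kat8 had -0.63 and -1.75, and Kdm5a was under 1 CPM in every S31A library.

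**Figure D5:**
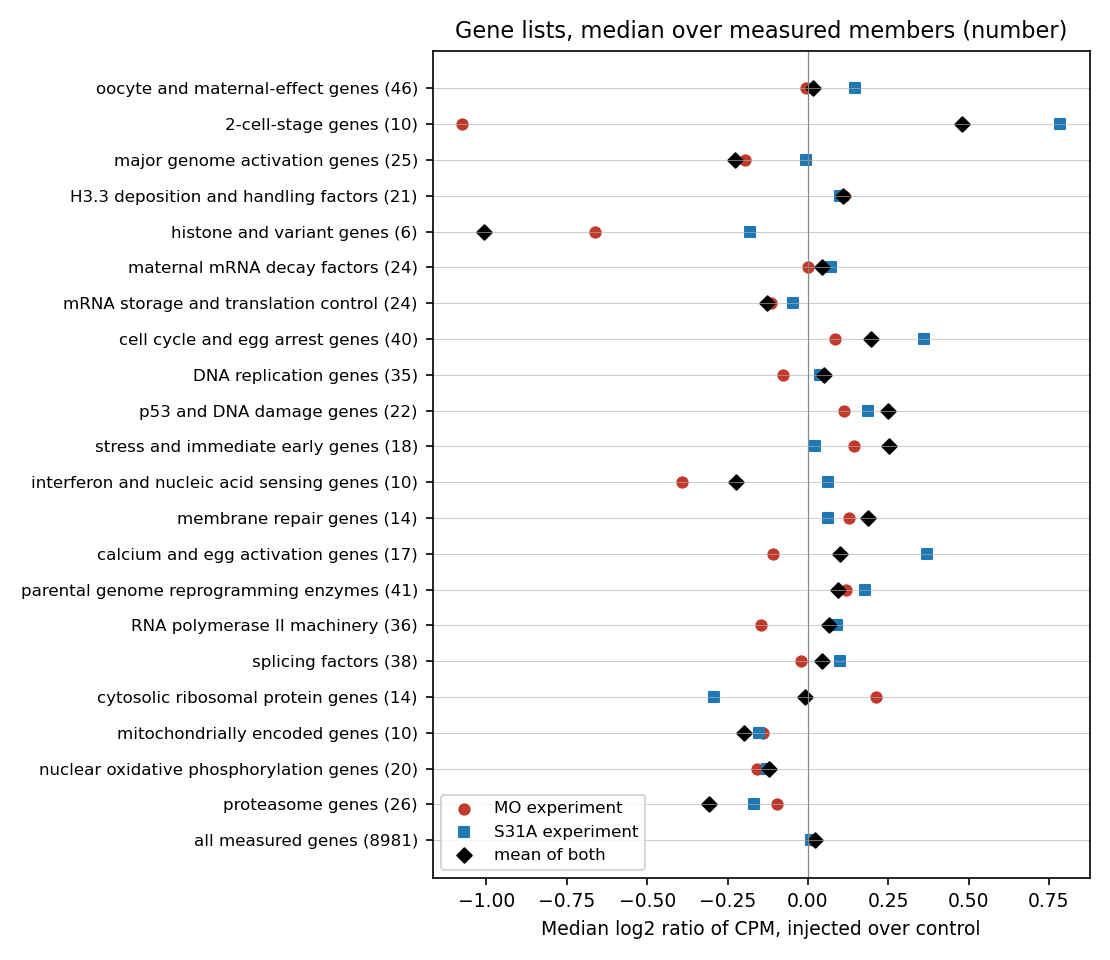
Median log2 ratio of injected over control over the measured members of each list (number in parentheses), with MO in red, S31A in blue and the mean of both experiments in black. Most medians lie within 0.4 of 0, the 2-cell-stage genes are on opposite sides (-1.07 and 0.78), and the histone list of 6 genes includes H3f3a and H3f3b.

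Genes that respond to injury, stress or foreign nucleic acid showed no common direction. Of 18 measured stress and immediate early genes, Ppp1r15a and Ddit4 were 2-fold higher in both and Egr1 2-fold lower, all with no overlap of libraries. Without a fold limit, libraries did not overlap for 3 higher and 3 lower members (16.7% each), beside 3.99% and 4.9% of all measured genes. Ppp1r15a, which restores translation after stress, stood at 14.9 and 22.2 against 45.9 and 71.2 CPM with MO, and at 20.3 and 7.30 against 22.7 and 38.5 CPM with S31A. Ddit4, an inhibitor of mTORC1, stood at 13.15 and 10.2 against 35.3 and 17.3 CPM, and at 8.04 and 8.62 against 17.6 and 17.4 CPM. Egr1, an immediate early transcription factor, stood at 20.6 and 42.7 against 1.99 and 17.9 CPM, and at 43.1 and 17.7 against 0.938 and 6.85 CPM. The heat shock genes Hsph1 (-0.98 and -2.07) and Dnajb1 (-0.39 and -1.24) were lower in both sums. The edgeR p-values of Ppp1r15a, Egr1, Hsph1 and Dnajb1 were under 0.05 unadjusted (0.0266, 0.0155, 0.026 and 0.0485), and their adjusted p was 0.899 or more. They were 4 of the 18 (22.2%), beside 4.82% of all measured genes.

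Of 22 measured p53 and DNA damage genes, Btg2, an antiproliferative p53 target, was 2-fold lower in both (-1.33 and -1.26), although its S31A control libraries held 95.2 and 34.7 CPM and its injected ones 11.7 and 45.3 CPM, which overlapped. Trp53 itself had ratios of 0.83 and 0.48, and the checkpoint kinase Atr 0.99 and 1.73 from libraries 1. Of 10 measured interferon and nucleic acid sensing genes, Tlr3, a receptor for double-stranded RNA, was 2-fold higher in both (1.08 and 2.31) with overlapping libraries, and Ifitm3 (-0.57 and -0.34) and the RNA sensor Ddx58 (-0.21 and -0.14) had small ratios. Of 14 measured membrane repair genes none was 2-fold the same way. The ESCRT member Chmp5 stood at 78.7 and 92.4 against 158.9 and 118.9 CPM, and at 129.3 and 99.3 against 153.4 and 186.5 CPM, with no overlap, beside Chmp2b (0.43 and 0.52) and Vps4a (-0.59 and -0.43). Of 35 measured replication genes, the GINS subunits Gins1 (-1.10 and -1.23) and Gins2 (-3.26 and -1.45) and the origin protein Orc3 (-1.23 and -1.10) were 2-fold lower in both, and the list median was -0.076 and 0.039. The libraries of Gins1 and Orc3 overlapped, and with 1 library left out the mean log2 ratio ran from -2.056 to -0.712 for Gins1, from -5.409 to -1.949 for Gins2 and from -3.333 to -0.258 for Orc3.

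Lists of energy supply and protein breakdown had medians under 0 in both experiments, which turned for the energy lists under some alternatives. Of 10 measured mitochondrially encoded genes, 7 had lower, 1 higher and 2 opposite signs, beside 26.1%, 27.8% and 45.5% of all measured genes, with a median of -0.14 with MO and -0.15 with S31A. The median for the mean of both was -0.199, and 0.046 without both injected libraries 1. The cytochrome b gene mt-Cytb stood at 18150 and 11460 against 10080 and 14010 CPM with MO, and at 28850 and 28640 against 19680 and 30220 CPM with S31A. The library ranges of mt-Cytb overlapped in both experiments. For mt-Co1, a cytochrome oxidase subunit, the ratios were -0.60 and -0.19, and mt-Nd4l was the member with a higher sign (1.01 and 0.49). The 20 nuclear oxidative phosphorylation genes had a median of -0.159 with MO and -0.127 with S31A, and -0.121 for the mean of both, which was 0.036 without S31A control library 2. Among them, the complex I subunits Ndufv1 (-3.14 and -2.23) and Ndufa8 (-1.34 and -1.30) were 2-fold lower, and the ATP synthase subunit Atp5c1 had 0.60 and 1.76. Of 26 proteasome genes none was 2-fold the same way, with Psma6 (-0.89 and -0.89), Usp14 (-3.08 and -0.86) and Psmb6 (0.73 and 0.78) as the members with the largest weaker ratio, and the median of -0.31 for the mean of both experiments was under 0 in every fit with 1 library left out (-0.516 to -0.157).

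Markers of the egg and of other cells were followed beside these lists. All 12 egg and zygote markers were measured, and their summed level was 8020 to 10700 CPM in control and 6600 to 15100 CPM in injected libraries. In the injected libraries it was 13700 and 6600 CPM with MO, and 15100 and 12100 CPM with S31A, higher in library 1 both times. Of 20 cumulus and granulosa cell markers 4 were measured and 12 were at 0 in all libraries, with sums of 81.7 to 104 CPM in control and 74.8 to 235 CPM in injected libraries. Of 14 sperm markers 1 was measured and 9 were at 0, with 42.4 to 52.8 CPM against 19.5 to 67.9 CPM. No blood cell or fibroblast marker was measured: their sums were at most 3.78 and 2.96 CPM in controls and at most 0.856 and 0.437 CPM in injected libraries. The part of cumulus RNA and of library depth in the shared ratios was not tested.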

How the data were processed

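RNA of mouse zygotes was sequenced in 4 samples with 2 libraries each. The submitters' processing notes name mm10 as the build and Bowtie2 and featureCounts among the tools. Their versions, the strand setting and the handling of multiply matching reads are not given in the sources used here, so values of overlapping genes are uncertain. The authors deposited unnormalized read counts for each gene and its length in bases, per the file headers. No source says whether the libraries are separate pools of embryos, so counts were summed per sample for the test.

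A gene was kept if any summed sample reached 10 CPM. Ratios are of TMM-scaled CPM with a prior count of 2 (edgeR 4.0.16, R 4.3.3). Counting intervals are exact at 95% and cover counting error only, and folds against 0 use a floor of 3 counts per summed sample. The test was edgeR's quasi-likelihood test with experiment as a block and Benjamini-Hochberg adjustment, on sums (1 residual degree of freedom) and over 8 libraries (5). DESeq2 1.42.0 was an alternative. The scripts were tested on simulated data. Named genes were the 12 highest and 12 lowest by the interval bound nearest no change in the weaker experiment, with at least 50 counts in each experiment and libraries that did not overlap, up to 3 members per list by the smaller same-sign ratio, and H3f3a and H3f3b; 1 list member that met this rule is not reported here. Members and lists were chosen with earlier results of these data known. Symbols matched GENCODE M21 for 96.4% of features and coordinates for 95.7%. Deviations of same-numbered libraries were weakly correlated across measured genes (r -0.06 to 0.09, the highest between the MO and S31A injected libraries 1). Being taken over all measured genes, these values cannot exclude a pairing, and the main test did not use the numbers. Figures were drawn with matplotlib 3.10.9.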

Additional observations from a re-analysis of the deposited data

Results flagged for a closer look

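H3f3b moved in opposite ways in the 2 experiments: every MO injected library was below its controls and every S31A injected library above them. The S31A log2 ratio exceeded the MO log2 ratio by 8.995. An edgeR interaction test over the 8 libraries gave a log2 difference of 8.88, a p of 4.16e-06 and an adjusted p of 0.0125. That test measures the spread between libraries only, since each group is a single sample.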

How the results depend on the processing

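The count of 0 genes called by edgeR held under every edgeR alternative run, without the block, with library number as a block and with each library left out, while DESeq2 called 43 genes on sums and 37 over libraries. The fold counts followed the thresholds. With a limit of 1 CPM, 1627 genes were at least 2-fold the same way (632 higher, 995 lower) and 1473 opposite. At 50 CPM there were 102 (55 and 47) and 53, and of genes whose libraries did not overlap 455 the same way, 212 of them lower, and 292 opposite. At 4-fold there were 112 (39 and 73) and 110, and at 1.5-fold 1408 (641 and 767) and 1101. Among genes with a count in each library, an alternative chosen after seeing the data, there were 237 (102 and 135) and 173. Leaving out 1 library gave 533 to 886 the same way, 178 to 356 higher, 300 to 574 lower and 504 to 634 opposite. The lowest same-way count came without MO injected library 1 and the highest without MO injected library 2. The following were also chosen after seeing the data. Without both injected libraries 1 there were 677 the same way, 480 lower and 627 opposite, and r was 0.01. Without both injected libraries 2 there were 1127, 776 lower and 770 opposite. Without both control libraries 1 there were 871, 394 higher and 789 opposite, and without both control libraries 2, 393 higher.

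Single genes reversed their mean log2 ratio in 23 of 2002 values. Without MO control library 1 Chd2 was at 0.789. Without MO injected library 1 Tcstv1 was at -0.333, Ddx58 0.155, Gdf9 -0.037, Bub1b -0.321 and Prim2 -0.155. Over all fits with 1 library left out, the ranges were -0.333 to 1.006 for Tcstv1, -4.161 to 0.789 for Chd2, -0.678 to 0.335 for Ddx58, -0.135 to 0.949 for Ppp3ca, -0.037 to 1.588 for Gdf9, -0.155 to 1.739 for Prim2 and -0.321 to 1.519 for Bub1b. Without S31A control library 1 Ddx58 was at 0.335, and without S31A injected library 1 Ddx58 was at 0.081 and Ppp3ca at -0.135. Without both injected libraries 1 the values were Mos -0.765, Tcstv1 -0.752, Ddx58 0.424, Atp2b1 -0.064, Gdf9 -0.536, Lrrc17 -0.291, Bub1b -0.616, Prim2 -0.218, Lsm14b -0.023, Plat -0.693 and Zar1 -0.171. Without both injected libraries 2 Chmp2b was at -0.088, and without both control libraries 1 Ifitm3 was at 0.082 and Ddx58 at 0.307. The cause was not tested. No paired analysis of samples was possible because each group is 1 sample, and whether the library numbers pair the libraries is not known. Of list medians, 141 of 378 values moved by more than the distance of the experiments from their mean.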
